A study of Homo sapiens with 3 samples.

Results

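miR-155 and miR-146a are among the miRNAs best known as products of NF-κB signalling, and miR-146b is a near-copy of miR-146a from another gene. All of their annotated forms were followed in MV4-11 cells, a human acute myeloid leukemia (AML) line. The members were chosen by name and not by level, as the hairpins hsa-mir-155, hsa-mir-146a and hsa-mir-146b with every mature arm listed for them. This gave 3 of the 661 hairpins and 6 of the 783 mature miRNA names in the tables.

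MV4-11 cells carry an internal tandem duplication of the receptor kinase FLT3 (FLT3-ITD) and the fusion protein MLL-AF4. Small RNA was sequenced from 3 replicate cultures of a single group. These cells had been infected with a lentiviral CRISPR-Cas9 construct without a guide (EV, the empty vector), their genotype is labelled WT, and RNA was taken after 2 weeks of growth. No stimulus is named for these cultures, and no second group, such as stimulated or uninfected cells, was analysed here. The levels therefore describe this line in culture, and the comparisons are between miRNAs within the same libraries. The 3 libraries gave 12694823, 10991953 and 11682129 reads on mature miRNAs in replicates 1, 2 and 3.

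NF-κB is a transcription factor that Toll-like receptors, interleukin-1 receptors and tumor necrosis factor switch on, and it drives transcription of the miR-155 host gene and of miR-146a. miR-155 lowers brakes on inflammatory and cytokine signalling such as the phosphatase SHIP1 and SOCS1, and it is known for raised levels in FLT3-ITD AML. miR-146a and miR-146b repress the adaptors IRAK1 and TRAF6 upstream of NF-κB and so act as negative feedback on the same pathway.

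The mature sequences show why the family can be read as a pair of near-copies set against an unrelated strand. They are given 5′ to 3′ from RefSeq on GRCh38.p14, with the seed (bases 2 to 8, the stretch that pairs with targets) in capitals.
miR-155-5p: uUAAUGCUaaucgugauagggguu
miR-155-3p: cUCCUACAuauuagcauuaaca
miR-146a-5p: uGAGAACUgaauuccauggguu
miR-146b-5p: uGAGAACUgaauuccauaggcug
miR-146a-3p: cCUCUGAAauucaguucuucag
miR-146b-3p: gCCCUGUGgacucaguucuggu

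The 5p strands of miR-146a and miR-146b had the same first 17 bases and were identical at 20 of the 22 positions compared. Counted from 1 at the 5′ end, with the base of miR-146a-5p written first, they differed by G18A and U21C, and miR-146b-5p ran on for 1 more base. Their 3p strands had different seeds and, counted from the 5′ end without gaps, were identical at 6 of 22 positions. Both 3p strands also hold a shared run of bases at shifted positions, which that count does not align. The seed of miR-155-5p, UAAUGCU, belonged to no other human mature miRNA in RefSeq. The seed GAGAACU belonged to 3, of which miR-146a-5p and miR-146b-5p had rows in the tables. Reads that stop before base 18 fit both miR-146 strands, and how the authors assigned such reads is not given in the sources used here.

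The hairpins of the miR-146 genes are shown to place these arms, which are in capitals.
MIR146A: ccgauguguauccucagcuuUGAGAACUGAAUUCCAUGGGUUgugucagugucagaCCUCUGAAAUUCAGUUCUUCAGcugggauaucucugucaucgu
MIR146B: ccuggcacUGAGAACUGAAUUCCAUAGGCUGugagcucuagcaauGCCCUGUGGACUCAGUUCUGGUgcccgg

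The 3 genes lie on different chromosomes of GRCh38 and all read from the plus strand. MIR155 (chr21:25573980-25574044) lies within exon 4 of its non-coding host gene MIR155HG. MIR146A (chr5:160485352-160485450) lies within exon 2 of the non-coding host gene MIR3142HG. MIR146B (chr10:102436512-102436584) lies in no annotated host gene, and the nearest other gene was CUEDC2, on the minus strand at a distance of 3851 bases. The host RNAs were not analysed here.

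The first question was how abundant each strand was, and which of the miR-146 genes supplied the shared seed. Levels are given as FPKM (reads scaled to the length of the strand and to the depth of the library). Ligation of adapters favours some small RNA ends over others, so ratios between strands are ratios of reads and not of molecules. The libraries had no molecular identifiers, so every counting interval covers counting error only. In an RNA extract, fewer expressing cells and less RNA per cell cannot be told apart.

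miR-155-5p, the strand that carries the known activity of miR-155, was measured at 957982, 1158581 and 1186121 FPKM in replicates 1, 2 and 3. Its mean was 1100895 ± 124530 (SD, n = 3), which placed it at rank 11 of 783 mature names. It took 2.11%, 2.55% and 2.61% of all mature reads, and the Wilson 95% intervals of these shares (2.10% to 2.12%, 2.54% to 2.56% and 2.60% to 2.62%) are narrow at this depth. Within each library miR-155-5p ranked 10th, 10th and 11th, so its place was nearly the same in every culture.

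miR-146b-5p was measured at 1878993, 1281288 and 893016 FPKM, with a mean of 1351099 ± 496682 (SD, n = 3) and rank 9. It took 3.95%, 2.69% and 1.88% of mature reads, and it ranked 5th, 9th and 13th within the libraries. It was therefore above miR-155-5p in replicates 1 and 2 and below it in replicate 3.

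miR-146a-5p was far lower, at 17401, 31406 and 35088 FPKM, with a mean of 27965 ± 9332 (SD, n = 3) and rank 96. It took 0.0366%, 0.0660% and 0.0737% of mature reads. Its lowest library was replicate 1, in which miR-146b-5p was highest. The range of miR-146a-5p did not overlap that of miR-146b-5p or miR-155-5p.

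The 3p strands, which are mostly discarded when a hairpin is processed, came below their 5p partners throughout. miR-146b-3p was the highest of them, at 17818, 16489 and 14541 FPKM, a mean of 16282 ± 1648 (SD, n = 3) and rank 116. miR-155-3p was measured at 503, 2248 and 2739 FPKM, a mean of 1830 ± 1175 at rank 235, and miR-146a-3p at 210, 455 and 342 FPKM, a mean of 336 ± 123 at rank 379. The last of these rested on 56, 105 and 84 reads, and miR-155-3p on 134, 519 and 672 reads. In replicate 1 the level of miR-146b-3p, a minor strand, was above that of miR-146a-5p, the major strand of its near-copy.

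**Figure D1:**
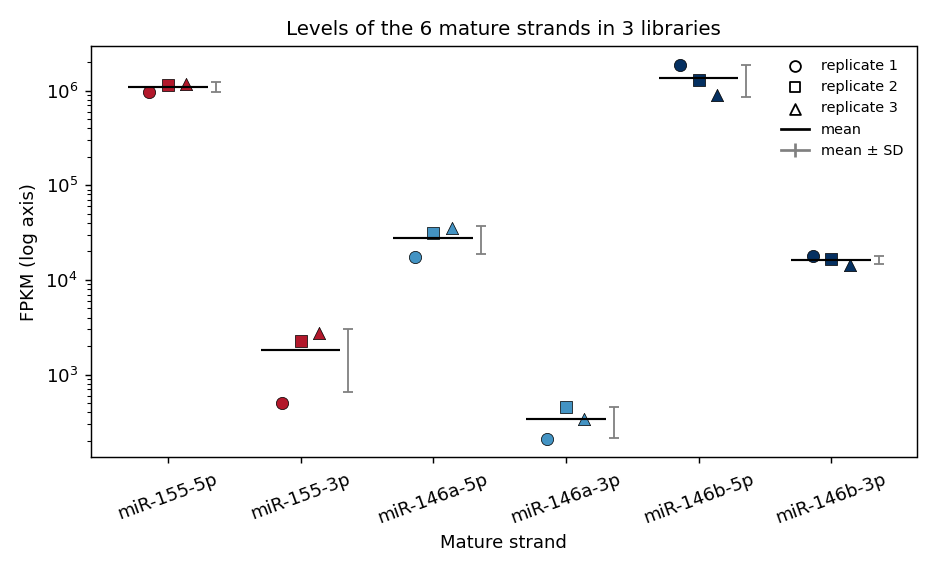
Level of each mature strand in FPKM on a log axis, with a point for each of the 3 libraries, a black line at the mean and a grey bar for the mean ± SD. miR-155-5p and miR-146b-5p lie near each other at means of 1100895 and 1351099 FPKM, and miR-146a-5p lies far below both at 27965.

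The hairpin table, in which all reads of a primary transcript are counted together, gave the same order of the miR-146 genes. These are nearly all the same reads as those of the arms, so the order is not independent support. The hairpin hsa-mir-146b was measured at 552045, 377490 and 263964 FPKM over the hairpin length (mean 397833 ± 145114, SD, n = 3, rank 5 of 661). The hairpin hsa-mir-155 was measured at 329475, 398630 and 408199 FPKM (mean 378768 ± 42956, rank 7), and hsa-mir-146a at 3771, 6814 and 7576 FPKM (mean 6054 ± 2013, rank 101). By FPKM hsa-mir-146b was above hsa-mir-155 only in replicate 1, and hsa-mir-146a was the lowest in all 3 libraries. By reads, without scaling to hairpin length, hsa-mir-146b was above hsa-mir-155 in replicate 2 as well (299637 against 281260).

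miR-146b-5p and miR-146a-5p were then compared with each other within each library. The ratio of their FPKM was 108 in replicate 1, 40.8 in replicate 2 and 25.5 in replicate 3, a mean log2 ratio of 5.59 ± 1.06 (SD, n = 3). Each ratio is far from 1, and they also differed from each other by more than 4-fold. Every mature name was tested against miR-146a-5p with the quasi-likelihood test of edgeR, with the library as a block, and called at an adjusted p under 0.05 and at least a 2-fold difference. miR-146b-5p was higher by 5.58 on the log2 scale (95% interval 4.33 to 6.83, edgeR adjusted p = 3.17e-05). Of the 782 other names, 69 (8.82%) were called higher than miR-146a-5p, so a place above it was uncommon but not particular to miR-146b-5p.

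The 3p strands, whose seeds differ, gave the same direction. The ratio of miR-146b-3p to miR-146a-3p was 84.8, 36.3 and 42.5 in the 3 libraries. In the edgeR fit miR-146b-3p was higher by 5.65 (95% interval 4.81 to 6.49, edgeR adjusted p = 1.35e-36, with the spread pooled over rows). miR-146a-3p is scarce, and 322 of 782 names (41.2%) were called higher than it. The hairpins, which hold the reads of both arms again, had ratios of 146.4, 55.4 and 34.8 for hsa-mir-146b over hsa-mir-146a. The fitted difference was 6.03 (95% interval 4.84 to 7.21, edgeR adjusted p = 3.81e-06), and 90 of 660 hairpins (13.6%) were called higher than hsa-mir-146a. Without the correction for hairpin length the fitted difference was 5.58.

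With both strands added, the seed GAGAACU summed to 1896395, 1312694 and 928104 FPKM. miR-146b-5p supplied 99.1%, 97.6% and 96.2% of that sum, and miR-146a-5p the rest. The mean of the sum, 1379064 ± 487545 (SD, n = 3), was at rank 7 of 580 seeds, next to the seed of miR-155-5p at rank 8. These ranks use the 679 names with a RefSeq sequence. The order of these seeds rests on replicate 1, since without it the means were 1120399 FPKM for GAGAACU and 1172351 for UAAUGCU.

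**Figure D2:**
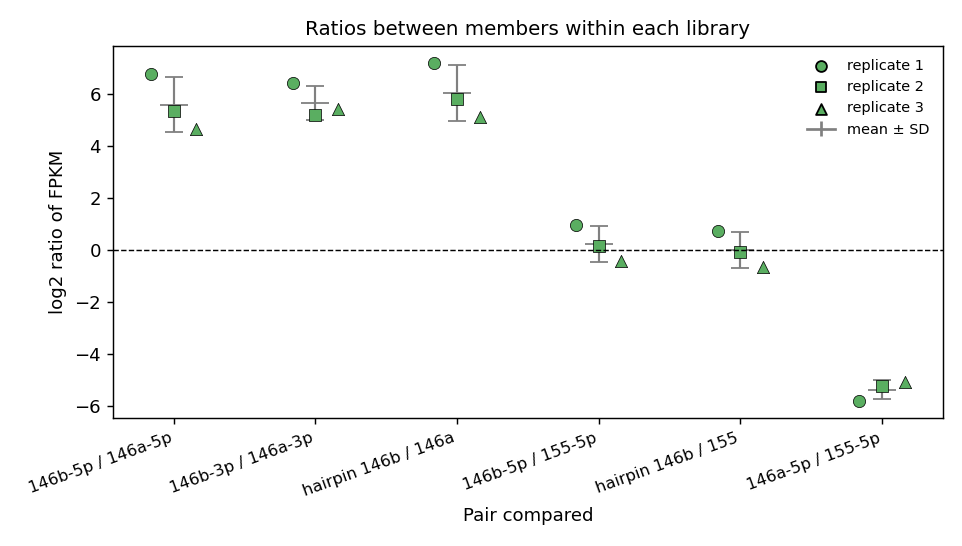
Log2 ratio of FPKM for 6 pairs of members, with a point for each library, a grey bar for the mean ± SD and a dashed line at equal levels. The ratios of miR-146b to miR-146a (5p, 3p and hairpin) lie far above the line, those of miR-146b to miR-155 drawn here (5p and hairpin) lie on both sides of it, and those of miR-146a-5p to miR-155-5p lie far below it.

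Set against miR-155-5p, miR-146b-5p gave ratios of 1.96, 1.11 and 0.753. The fitted difference was 0.23 on the log2 scale (95% interval -0.52 to 0.99, edgeR adjusted p = 0.499), and it was not called. The interval spans from below to above an equal level, and without replicate 1 the difference was -0.13, with the direction turned. A p-value of this size does not show that the levels were equal. The hairpins were not told apart either, with ratios of 1.68, 0.947 and 0.647 for hsa-mir-146b over hsa-mir-155 and a difference of 0.01 (95% interval -0.78 to 0.80, edgeR adjusted p = 0.979). Without replicate 1 this difference was -0.35 (edgeR adjusted p = 0.0532). With all libraries but no correction for hairpin length it was 0.18.

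miR-146a-5p was lower than miR-155-5p in every library. miR-155-5p had 55.1, 36.9 and 33.8 times the FPKM of miR-146a-5p in replicates 1, 2 and 3. The fitted difference of miR-146a-5p from miR-155-5p was -5.35 (95% interval -5.90 to -4.81, edgeR adjusted p = 1.66e-08). miR-155-5p is itself close to the top of the table, so 768 of 782 names (98.2%) were called lower than it, and being lower is no feature of miR-146a-5p. For the hairpins the ratios of hsa-mir-155 to hsa-mir-146a were 87.4, 58.5 and 53.9, and the fitted difference of hsa-mir-146a was -6.02 (95% interval -6.61 to -5.44, edgeR adjusted p = 1.12e-08), among 647 of 660 hairpins (98.0%) called lower. Without the correction for hairpin length this difference was -5.41.

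Only 2 of 782 names (0.256%) were called higher than miR-155-5p. They were miR-21-5p, a strand raised in many cancers, by 3.58 on the log2 scale, and miR-148a-3p, by 1.2. The call of miR-148a-3p was lost without replicate 1, where its difference of 0.84 was under the 2-fold limit, and without replicate 2 (1.28, edgeR adjusted p = 0.115), and that of miR-21-5p was not lost in any of these fits. miR-146b-5p was among 12 names that were called neither higher nor lower. The others were let-7f-5p, let-7g-5p, let-7i-5p, miR-17-5p, miR-20a-5p, miR-24-3p, miR-26a-5p, miR-30d-5p, miR-92a-3p, miR-103a-3p and miR-191-5p, which include strands of the let-7 family and of the miR-17 cluster.

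By mean level the 3p strands kept the order of the 5p strands, with miR-146b above miR-155 and miR-146a lowest, but the gaps differed. miR-146b-3p was above miR-155-3p by ratios of 35.5, 7.34 and 5.31, although their 5p partners could not be told apart. The fitted difference was 3.43 (95% interval 1.97 to 4.89, edgeR adjusted p = 8.37e-06), it was 2.64 without replicate 1, and 184 of 782 names (23.5%) were called higher than miR-155-3p. miR-155-3p was above miR-146a-3p by ratios of 2.39, 4.94 and 8.0. The fitted difference of miR-146a-3p was -2.20 (95% interval -3.70 to -0.69, edgeR adjusted p = 0.00588), where 447 of 782 names (57.2%) were called lower. That call was lost without replicate 2 (-2.13, edgeR adjusted p = 0.260) and without replicate 3 (-1.79, edgeR adjusted p = 0.294).

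Each hairpin was next compared with itself, to ask how strongly its reads favoured the 5p arm. The 5p arm of miR-155 had 1906, 515 and 433 times the FPKM of its 3p arm. For miR-146a these ratios were 82.9, 69.1 and 102.5, and for miR-146b they were 105, 77.7 and 61.4. The lowest ratio of miR-155 was above the highest ratio of either miR-146 hairpin, whereas the ranges of miR-146a and miR-146b overlapped.

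In the fit of both arms the 5p arm of miR-155 was higher by 9.52 on the log2 scale (95% interval 7.93 to 11.10, edgeR adjusted p = 5.57e-05). This was rank 3 toward the 5p arm among 196 hairpin names with both arms listed. miR-146a had a difference of 6.38 (95% interval 5.61 to 7.15, edgeR adjusted p = 1.61e-05, rank 18) and miR-146b one of 6.31 (95% interval 5.64 to 6.98, edgeR adjusted p = 1.15e-05, rank 20). A call toward the 5p arm was common, at 79 of 196 pairs (40.3%), and the median absolute difference of all pairs was 3.16. By these ranks all 3 hairpins were further to the 5p side than most of the 196 pairs, as a description. Hairpins with an unlisted arm did not enter, and the part of read depth in these ranks was not tested. Without replicate 1 the value of miR-155 was 8.88.

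The arm preferences themselves were compared in a fit with an interaction of arm and hairpin and a block for each library of each hairpin. miR-155 was further toward 5p than miR-146b by 3.20 (95% interval 2.44 to 3.96, edgeR adjusted p = 9.23e-16) and than miR-146a by 3.13 (95% interval 2.20 to 4.06, edgeR adjusted p = 1.58e-06). Both p-values pool the spread over rows, and their size depends on the method. An alternative fit paired the hairpins within a library. It gave limma adjusted p = 0.00156 against miR-146b and limma adjusted p = 5.02e-10 against miR-146a. The value against miR-146a was 2.5 without replicate 1. Only 9 of 195 other hairpins (4.62%) were called further toward 5p than miR-146a, and 9 of 195 (4.62%) further than miR-146b. Between miR-146b and miR-146a the difference was -0.07 (95% interval -0.69 to 0.55, edgeR adjusted p = 0.821), which was not called and whose interval leaves room for a difference in either direction.

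As shares of the reads of both arms, the 3p strand of miR-155 made up 0.050%, 0.185% and 0.220% in replicates 1, 2 and 3. The Wilson 95% interval in replicate 1 was 0.0423% to 0.0593%, and those in replicates 2 and 3 were 0.170% to 0.201% and 0.204% to 0.237%. The 3p share of miR-146a was 1.19%, 1.43% and 0.966%, with overlapping intervals of 0.920% to 1.55%, 1.18% to 1.72% and 0.781% to 1.19%. That of miR-146b was 0.939%, 1.27% and 1.6%, with intervals of 0.913% to 0.966%, 1.23% to 1.31% and 1.55% to 1.66%, which do not overlap. The 3p shares of miR-146b and miR-155 were thus lowest in the same library, replicate 1, and that of miR-146a was lowest in replicate 3.

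**Figure D3:**
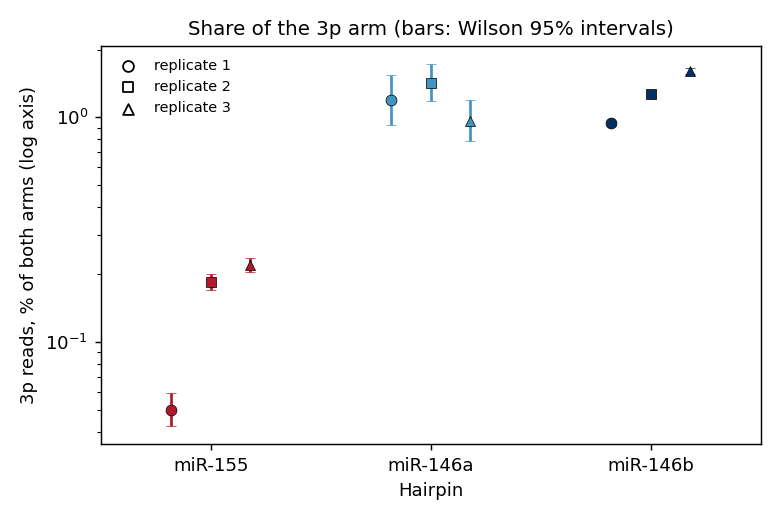
Reads of the 3p arm as a percentage of the reads of both arms, on a log axis, with a point for each library of each hairpin and bars for the Wilson 95% interval. miR-155 lies lowest, between 0.050% and 0.220%, and both miR-146 hairpins lie near 1% with ranges that overlap.

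A small number of reads fell on the hairpins but on neither listed arm. They were 589, 510 and 542 reads for hsa-mir-155, which is 0.193% ± 0.0234 (SD, n = 3) of its hairpin reads. hsa-mir-146a had 7, 6 and 6 such reads (0.0998% ± 0.0430) and hsa-mir-146b had 15, 6 and 5 (0.00240% ± 0.000501). The share was highest in hsa-mir-155 in all 3 libraries. For hsa-mir-155 in replicate 1 the reads outside the arms, at 589, outnumbered the 134 reads of the 3p arm.

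The last question was how far each member varied between the cultures, and whether that stood out from other miRNAs. Replicate 1 differed from the other libraries as a whole. Of 330 names with at least 100 counts in every library, 246 had a higher FPKM in replicate 3 than in replicate 1 and 84 a lower one, with a median log2 ratio of 0.51. FPKM is relative to the library total, and miR-21-5p, at rank 1 of all names, had a log2 ratio of -0.93. The summed FPKM of 4 white blood cell miRNAs was 654278 in replicate 1, against 1553562 and 1604855 in replicates 2 and 3. The sum of 11 listed miRNAs of other tissues was 462419, 614704 and 581564, mostly from miR-9-5p, and the red cell markers miR-451a and miR-144-3p had mean levels of only 71.6 and 81.7 FPKM. The part of these differences in the values of the members was not tested.

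miR-146b-5p was at the low end of this comparison. Its log2 ratio of replicate 3 to replicate 1 was -1.07, and 4 of the 330 names had a lower one. They were miR-378i (-1.68), miR-3607-3p (-1.65), miR-148a-5p (-1.17) and miR-1278 (-1.09). miR-148a-3p, at rank 2 of all names, had a ratio of -1.01. miR-146b-3p, from the same hairpin, was also lower in replicate 3, with a ratio of -0.29 and 48 names below it.

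miR-146a-5p went the other way, with a log2 ratio of 1.01 and 235 names below it. miR-155-5p had a ratio of 0.31, below the median of 0.51, and 130 names below it. miR-155-3p had a ratio of 2.45, with 323 names below it, against 0.31 for its 5p partner. miR-146a-3p did not reach the count minimum, and its ratio was 0.70. The members therefore did not share a direction between these libraries.

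These directions depend partly on the scaling. With counts scaled by the median of ratios, which centres the typical miRNA, the ratio was -1.64 for miR-146b-5p, -0.86 for miR-146b-3p, 0.45 for miR-146a-5p, 0.14 for miR-146a-3p and 1.88 for miR-155-3p. The ratio of miR-155-5p turned from 0.31 to -0.25. The ratios within a library given above do not depend on this choice.

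**Figure D4:**
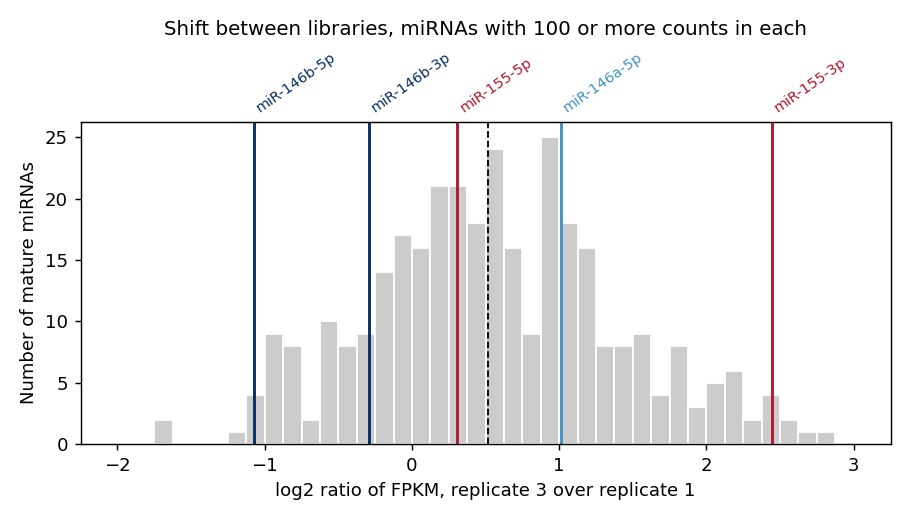
Histogram of the log2 ratio of FPKM in replicate 3 over replicate 1 for the 330 mature names with at least 100 counts in every library, with a dashed line at the median of 0.51 and coloured lines at 5 of the members. miR-146b-5p at -1.07 and miR-155-3p at 2.45 lie near the opposite ends, and miR-155-5p at 0.31 lies near the middle.

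The coefficient of variation over the 3 cultures was 11.3% for miR-155-5p and 10.1% for miR-146b-3p, the most even of the members. It was 36.8% for miR-146b-5p, 33.4% for miR-146a-5p, 36.5% for miR-146a-3p and 64.2% for miR-155-3p. The median of the 330 names was 25.2%. Much of this spread rests on replicate 1, and without it the values were 1.66% for miR-155-5p, 7.83% for miR-146a-5p, 19.95% for miR-146a-3p, 13.9% for miR-155-3p, 25.3% for miR-146b-5p and 8.88% for miR-146b-3p. Leaving out replicate 2 gave 97.6% for miR-155-3p, and leaving out replicate 3 gave 5.48% for miR-146b-3p. With all libraries and the median of ratios the values were 9.47% for miR-155-5p, 31.4% for miR-146b-3p, 58.4% for miR-146b-5p, 15.9% for miR-146a-5p, 24.4% for miR-146a-3p and 54.5% for miR-155-3p. On that scale miR-155-5p was the most even and miR-146b-5p the most variable of the 6, so their order depends on the scaling.

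miR-146 was also set beside other families in which an a and a b member share a seed. Such pairs were picked after the values were seen, so they are a description only. There were 22 pairs, with a median absolute log2 ratio of 3.45 between the members, and the a member was the higher on average in 16. miR-146 was among 6 pairs with the b member higher. Among all 22 pairs its ratio ranked 5 in size and its range over the libraries ranked 2. Of the 15 pairs with at least 100 counts in every library, its ratio ranked 2nd in size, after miR-20a/b-5p at 9.02. Its range over the 3 libraries, 2.085 on the log2 scale against a median range of 0.57 over the 22 pairs, ranked 1st of the 15.

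**Figure D5:**
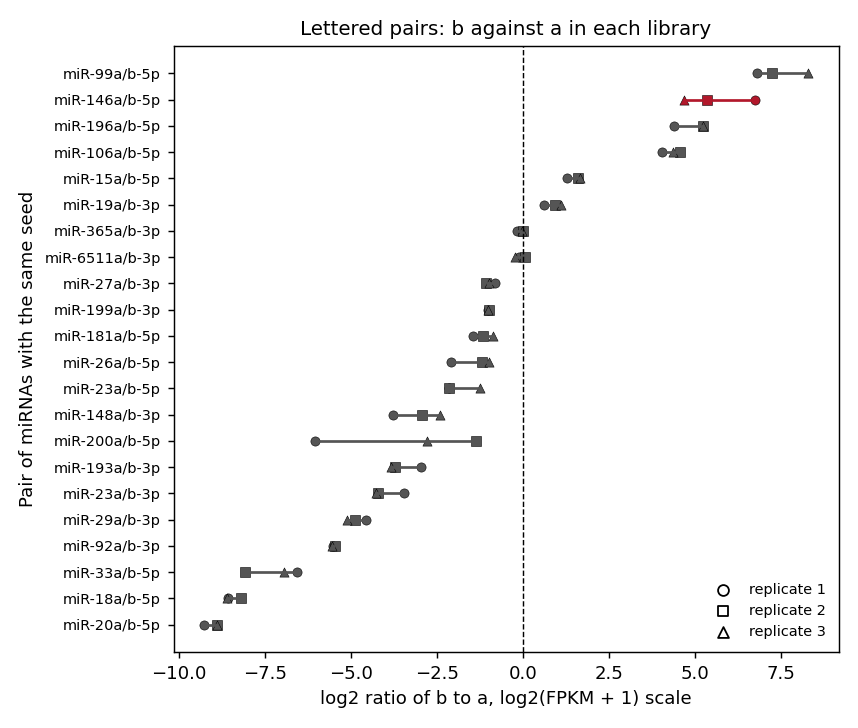
Log2 ratio of the b to the a member, on the log2(FPKM + 1) scale, for 22 pairs of miRNAs with the same seed, with a point for each library and a line from the lowest to the highest. miR-146 is drawn in red at a mean of 5.59, on the side where b is higher, with a range of 2.085 that is among the widest.

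The nearest miRNAs in level over the 3 libraries were found by the root mean square difference of log2 FPKM, a likeness of numbers only. miR-155-5p was nearest to let-7g-5p (0.24), miR-92a-3p (0.50) and let-7i-5p (0.51). miR-146b-5p was nearest to let-7i-5p (0.43), let-7g-5p (0.51) and miR-30d-5p (0.59). miR-146a-5p, at its lower level, was nearest to miR-425-3p (0.13), miR-199b-3p (0.21) and miR-455-3p (0.23).

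Other miRNAs linked to inflammatory signalling were taken from a list of 20, of which 18 had rows, and miR-187-3p and miR-125b-5p were not analysed here. Of these 18, 1 was called higher than miR-155-5p and 17 lower in the same edgeR fit, where 0.256% and 98.2% of all names were. Their median difference from miR-155-5p was -5.83 on the log2 scale, against -12.02 over all 782 names. Among the miRNAs known to be induced by inflammatory signals, miR-21-5p had a mean of 13583973 FPKM, and it alone was above miR-146b-5p in all 3 libraries. miR-221-3p and miR-222-3p, which come from a shared cluster, had means of 591323 and 353351 FPKM. miR-9-5p had 340814 FPKM.

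The other induced strands lay below miR-146a-5p. miR-132-3p had a mean of 9997 ± 1041 FPKM (SD, n = 3), miR-125a-5p 6008 FPKM, let-7e-5p 2756 FPKM and miR-147b 376 ± 14.7 FPKM. miR-223-3p, a granulocyte and monocyte miRNA that restrains inflammatory signalling, had a mean of 230877 FPKM. In all 3 libraries 8 of the 18 were above miR-146a-5p and 10 below it. miR-146a-5p therefore lay within the range of these miRNAs, and miR-155-5p and miR-146b-5p near their upper end.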

How the data were processed

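Small RNA from 3 replicate cultures of 1 group of MV4-11 cells was sequenced on an Illumina HiSeq instrument after column isolation and New England Biolabs library preparation. The authors deposited whole read counts, not normalized, per mature strand and per primary transcript of miRBase release 21. They also deposited FPKM, which the authors computed from those counts, the feature length and the library total. The submitters' processing notes name Novoalign 2.08.03 and the builds hg19 and mm10, without saying what each was used for. Dividing counts by FPKM gave lengths 1 base shorter than RefSeq for 627 of 634 names, and FPKM of miR-155-5p and miR-146b-5p rest on lengths 2 bases shorter.

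Rows of the same mature name were summed. Counts were fitted in edgeR 4.0.16 (R 4.3.3) by quasi-likelihood, with a block for the library and offsets for the library total and the length. Each name was tested against a reference strand, and arms within a hairpin, with Benjamini-Hochberg adjustment over all rows. All rows of such a fit share the reference. A call needed an adjusted p under 0.05 and an absolute log2 difference of at least 1. The labels describe triplicate cultures, and p-values measure the spread between these libraries, pooled in part over rows. An exact sign-flip permutation test over 3 libraries cannot go below p = 0.25, so none was used. Wilson 95% intervals cover counting error only. Scripts were tested on simulated data. Alternatives were limma 3.58.1 on log2(FPKM + 1), DESeq2 1.42.0, no length term, a minimum of 100 counts, separate rows for repeated names, other scalings and leaving out each library. Levels and figures used Python 3.11.15, numpy 2.4.6, scipy 1.17.1, pandas 2.3.3 and matplotlib 3.10.9. Loci came from GENCODE release 29, and sequences from RefSeq on GRCh38.p14, matched by miRNA name for all 6 mature strands and both miR-146 hairpins.

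The members, lists and comparisons were chosen with earlier results of these data known. By rule, the named miRNAs were the members, the list of inflammation-linked miRNAs, the 3 nearest in level to each 5p strand and any that share a seed with a member. The miRNAs named for being called higher than, or not called against, miR-155-5p, for a lower ratio of replicate 3 to replicate 1, as cell type markers or as a lettered pair fall outside that rule and were chosen after their values were seen.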

Additional observations from a re-analysis of the deposited data

How the results depend on the processing

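Of 117 recomputed tests 112 kept their direction and call, of 32 recomputed counts 29 stayed within 1.5 times, and of 50 recomputed spreads 30 did. A minimum of 100 counts in every library left 316 names called lower than miR-155-5p, because fewer names were tested. When each library was left out in turn, the difference of miR-146b-5p from miR-155-5p ran from -0.13 to 0.56 and that of the hairpins from -0.35 to 0.33, with the direction turned without replicate 1. The arm preference of miR-146b against miR-146a ran from -0.28 to 0.27 and turned without replicate 3. None of these was called under any setting. miR-146a-3p against miR-155-3p ran from -2.65 to -1.79 and lost its call without replicate 2 or replicate 3. The count of names higher than miR-155-5p ran from 1 to 2, and was 1 without replicate 1 or without replicate 2, where miR-148a-3p was lost. The median coefficient of variation was taken over the 6 mature strands and the 3 hairpins together, although hairpins and arms hold nearly the same reads. It ran from 8.88% without replicate 1 to 47.4%, against 33.4% with all libraries. With 3 libraries and no second group, neither the response of these miRNAs to a stimulus nor the source of the differences between cultures could be measured.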
